A study of Mus musculus with 6 samples.

Results

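The genes described here are the 10 chemokines of the CXC and CX3C families Cxcl1, Cxcl2, Cxcl3, Cxcl5, Cxcl9, Cxcl10, Cxcl11, Cxcl14, Cxcl16 and Cx3cl1, chosen by gene symbol from a table of 55401 mouse genes. Their mRNA was measured by sequencing poly(A) RNA of BV2 cells, an immortalised mouse microglial cell line, which stands in for microglia in culture and is not a primary cell. There were 3 libraries of BV2 cells given LPS and 3 libraries of BV2 cells given vehicle. The labels give neither a dose nor a time for LPS, and they name no genetic change in either group. Nothing in the labels shows that libraries of the same group are separate cultures, so the p-values below measure only the spread between these libraries, which may be technical.

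Chemokines are small secreted or shed proteins that draw leukocytes along a gradient through G-protein-coupled receptors, and the family names describe the spacing of the first cysteines of the protein. LPS, a component of the Gram-negative bacterial envelope, is sensed by the TLR4 receptor complex, which leads to NF-kB activation and to type I interferon production in macrophages and microglia. Neutrophil attractants of the CXC family act on Cxcr2, interferon-linked members act on Cxcr3 on activated T cells, and a few members are made without a stimulus. The 10 genes were therefore read in 3 classes: neutrophil-attracting (Cxcl1, Cxcl2, Cxcl3, Cxcl5), interferon-linked (Cxcl9, Cxcl10, Cxcl11) and constitutive (Cxcl14, Cxcl16, Cx3cl1).

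Library totals ran from 45969690 to 59023474 estimated counts, and 18984 to 20615 genes were above 0. Low values were spaced by 3.74 to 3.78 counts, so the limit that a count of 0 allows was set at 3 such steps, which is 11.22 to 11.34 counts per library and covers counting error only. All 8 microglia and macrophage markers looked up were above that limit in every library, with summed levels of 1695 to 2173 CPM (counts scaled to library size) with LPS and 2007 to 2303 CPM with vehicle; Adgre1 was called higher, and Csf1r and Tyrobp lower. All 5 T and B cell markers were at or under the limit in every library, as were 4 of 5 neutrophil markers (Ly6g, S100a9, Mpo and Elane). S100a8, the remaining neutrophil marker, was above the limit in every library and called higher, and the summed level of the 5 neutrophil markers was 11.7 to 13.6 CPM with LPS and 1.92 to 3.22 CPM with vehicle; its part in the values of the chemokines was not tested.

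Cxcl2, a neutrophil attractant, rose 218-fold, and Cxcl10, an interferon-linked T cell attractant, rose 6.55-fold, while the constitutive member Cxcl14 fell 2.06-fold. Cxcl3, a relative of Cxcl2, was at 0 with vehicle, and its LPS mean was 13.6 times the mean limit of the Vehicle libraries. That value is uncertain because reads may be shared with Cxcl2. Of the 10 members, 6 passed the filter on low counts and were tested. Of these, 3 were called higher, 1 was called lower and 2 were not called. Cxcl3 passed the filter through its LPS libraries alone. Over the whole table, edgeR's quasi-likelihood test called 23.6% of 16371 genes at a Benjamini-Hochberg adjusted p under 0.05, 12.7% higher and 10.9% lower. Libraries of the groups did not overlap for 3 members that were higher and 1 that was lower, against 20.8% higher and 20.0% lower, 40.8% in all, of the tested genes. The 4 members that were not tested (Cxcl1, Cxcl5, Cxcl9 and Cxcl11) had at most 23 counts in any library. In bulk RNA, a change in the number of cells that express a gene and a change in RNA per cell cannot be told apart.

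**Figure D1:**
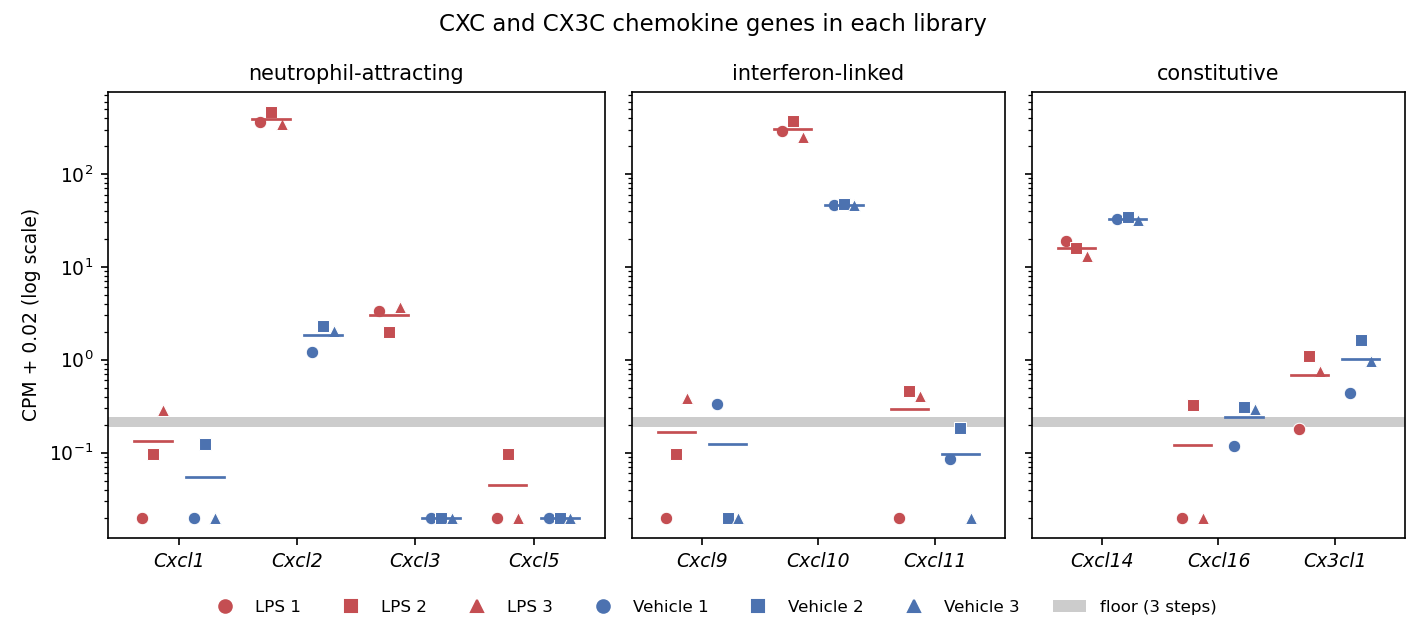
Level of each of the 10 chemokine genes in every library, in CPM on a log axis, with LPS libraries left of Vehicle libraries and the bar at the mean of 3 libraries. Cxcl2 stood at 345 to 461 CPM with LPS and at 1.19 to 2.30 CPM with vehicle, and Cxcl14 is the called member whose LPS libraries all lie below its Vehicle libraries.

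Cxcl2 (ENSMUSG00000058427), known as MIP-2 and made by macrophages early after stimulation, lies on mouse chromosome 5 beside Cxcl1. The 250 bases upstream of its start are shown because Cxcl2 had the largest fold among the members with counts in all 6 libraries, and because the window holds letters of the kB type that NF-kB binds. Bases are from RefSeq's annotation of GRCm38.p6, given 5′ to 3′ on the gene's strand (chr5:90903649-90903898, plus strand), and capitals mark matches to the kB letters GGGNNNTTCC on either strand.
Cxcl2: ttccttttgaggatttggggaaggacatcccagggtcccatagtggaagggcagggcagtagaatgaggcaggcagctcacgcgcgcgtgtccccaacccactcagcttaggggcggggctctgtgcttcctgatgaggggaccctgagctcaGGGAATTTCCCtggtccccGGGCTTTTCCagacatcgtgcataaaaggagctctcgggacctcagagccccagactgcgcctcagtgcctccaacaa
The match GGGAATTTCC begins 97 bases upstream of the start, overlaps a match on the opposite strand that begins 1 base further on, and is followed by GGGCTTTTCC at 78 bases upstream. Of 32851 promoter windows of 250 bases in the same table, 4.65% hold at least 1 kB match.

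With LPS, Cxcl2 had 366, 461 and 345 CPM in libraries 1, 2 and 3, against 1.19, 2.30 and 2.01 CPM with vehicle. The lowest LPS library stood far above the highest Vehicle library, and the groups did not overlap. The mean was 391 ± 61.5 CPM with LPS and 1.83 ± 0.575 CPM with vehicle (SD, n = 3 each). The log2 fold change was 7.77 ± 0.22 (SE; edgeR adjusted p = 6.35e-07), the 25th largest rise among 16371 tested genes. By mean CPM, Cxcl2 stood at the 97.7th percentile of tested genes with LPS and at the 27.6th percentile with vehicle. Within the LPS group the highest library, LPS 2, was 1.33 times the lowest, LPS 3, and within the Vehicle group this ratio was 1.93.

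Cxcl3 (ENSMUSG00000029379) and Cxcl1 (ENSMUSG00000029380) are neutrophil attractants closely related to Cxcl2 and lie in the same cluster on chromosome 5, where RefSeq orders Cxcl5, Ppbp, Pf4, Cxcl3, Cxcl15, Cxcl1 and Cxcl2. Their upstream windows are shown beside the window of Cxcl2 because all 3 carry the same kB match while their levels differed widely; capitals again mark kB matches (Cxcl3 at chr5:90785851-90786100 and Cxcl1 at chr5:90890995-90891244, both plus strand).
Cxcl3: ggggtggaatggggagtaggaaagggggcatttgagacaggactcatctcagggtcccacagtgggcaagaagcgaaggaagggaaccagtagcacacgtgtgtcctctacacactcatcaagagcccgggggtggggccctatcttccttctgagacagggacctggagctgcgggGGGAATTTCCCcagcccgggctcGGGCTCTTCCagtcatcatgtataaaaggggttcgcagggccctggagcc
Cxcl1: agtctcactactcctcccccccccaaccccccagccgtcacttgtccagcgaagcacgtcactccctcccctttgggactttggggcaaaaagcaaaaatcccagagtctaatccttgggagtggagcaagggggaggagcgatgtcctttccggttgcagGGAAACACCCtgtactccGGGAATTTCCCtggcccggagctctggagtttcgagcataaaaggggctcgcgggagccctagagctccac
The letters GGGAATTTCC begin 73 bases upstream in Cxcl3 and 71 bases upstream in Cxcl1. A further match lies at 50 bases upstream in Cxcl3, GGGCTCTTCC, and at 89 bases upstream in Cxcl1, GGAAACACCC, which is read on the opposite strand. Aligned over their windows, Cxcl2 and Cxcl3 were identical at 54.7% of columns, Cxcl1 and Cxcl3 at 50.7% and Cxcl1 and Cxcl2 at 49.7%. A match describes these letters only and shows no binding.

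Cxcl3 had 166, 103 and 181 counts with LPS and 0 in each of the 3 Vehicle libraries. All 3 LPS libraries were above the limit that a count of 0 allows, and no Vehicle library held a count. The mean with LPS was 3.0 ± 0.926 CPM (SD, n = 3), 13.6 times the mean limit of the Vehicle libraries (3 steps per library). Cxcl3 was called higher (edgeR adjusted p = 0.00218). Its LPS libraries did not follow those of Cxcl2: LPS 3 was the highest and LPS 2 the lowest for Cxcl3, with a ratio of 1.90. Per length, Cxcl2 exceeded Cxcl3 by 60.2, 129 and 50.8 times in LPS 1, 2 and 3.

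Reads of Cxcl3 may be shared with Cxcl2, since 8.11% of the 31-base words of the Cxcl3 transcript also occur in the Cxcl2 transcript, with a longest identical stretch of 110 bases. Cxcl2 and Cxcl3 were the only 1 of 45 member pairs with a shared word of that length. The counts of Cxcl3 were 0.908%, 0.424% and 1.08% of those of Cxcl2 in LPS 1, 2 and 3. At the highest of these ratios, the Vehicle libraries would hold 0.774, 1.20 and 1.02 counts of Cxcl3, which is under the limit that a count of 0 allows. The part of shared reads in the Cxcl3 value was not tested, and the value is uncertain for that reason.

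Cxcl1, whose protein is also called KC, had 0, 4 and 13 counts with LPS, against 0, 5 and 0 counts with vehicle. A single LPS library exceeded the limit that a count of 0 allows, and the groups overlapped. With every gene kept in the fit, the log2 fold change of Cxcl1 was 1.74 ± 1.76 (SE; edgeR adjusted p = 0.612). Cxcl5 (ENSMUSG00000029371), a further ligand of Cxcr2, had 4 counts in LPS 2 and 0 in the other 5 libraries. Neither gene was detectable as changed at this depth. The neutrophil-attracting class thus held 2 tested members, both called higher, and 2 members too low to test. Of the tested members, Cxcl3 passed the filter through its LPS libraries alone, since every Vehicle library was at 0. It may also share reads with Cxcl2, so it is not a separate second case.

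Among other CXC genes that share the cluster, Cxcl15 was at 0 in all 6 libraries. Pf4, platelet factor 4, was abundant and is not called in this comparison: it had 71.6, 74.4 and 40.3 CPM with LPS, against 55.9, 52.9 and 52.8 CPM with vehicle, and a log2 fold change of 0.21 ± 0.22 (SE; edgeR adjusted p = 0.545). LPS 3 lay below every Vehicle library and the other LPS libraries above them, and without LPS 3 Pf4 was called higher. Ppbp, the platelet basic protein gene, had 0, 0 and 4 counts with LPS and 8, 0 and 21 counts with vehicle.

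Cxcl10 (ENSMUSG00000034855), known as IP-10 and a ligand of Cxcr3, lies in a separate cluster on chromosome 5 with Cxcl9, Art3 and Cxcl11. Its upstream window is shown because it is the only member window that holds both kB letters and letters of the interferon-stimulated response element, GAAANNGAAA; the window of Cxcl9, the neighbouring interferon-linked gene, is set beside it and holds neither (chr5:92348890-92349139 for Cxcl10 and chr5:92328080-92328329 for Cxcl9, both minus strand). Capitals mark matches to either set of letters on either strand. Other spellings of these sites were not searched, so a window without a match is not shown to lack such sites.
Cxcl10: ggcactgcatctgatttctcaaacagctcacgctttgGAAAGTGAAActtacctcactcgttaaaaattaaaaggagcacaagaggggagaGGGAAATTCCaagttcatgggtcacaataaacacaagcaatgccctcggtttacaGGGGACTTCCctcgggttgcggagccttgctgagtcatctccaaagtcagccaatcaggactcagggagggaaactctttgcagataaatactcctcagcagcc
Cxcl9: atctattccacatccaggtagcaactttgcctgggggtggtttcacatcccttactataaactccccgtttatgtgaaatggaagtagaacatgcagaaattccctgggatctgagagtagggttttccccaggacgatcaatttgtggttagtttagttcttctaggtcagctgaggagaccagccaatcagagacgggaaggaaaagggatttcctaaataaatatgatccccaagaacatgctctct
In Cxcl10, the response element match GAAAGTGAAA begins 213 bases upstream, and the kB matches GGGAAATTCC and GGGGACTTCC begin 159 and 104 bases upstream. The response element letters occur in 2.98% of the 32851 windows. The Cxcl10 window also holds 1 match to the AP-1 letters TGANTCA, present in 6.75% of windows and not capitalised here.

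With LPS, Cxcl10 had 290, 374 and 250 CPM in libraries 1, 2 and 3, against 45.9, 47.8 and 45.8 CPM with vehicle. The groups did not overlap, the Vehicle libraries lay close together, and LPS 2 was the highest library, as it was for Cxcl2. The mean was 305 ± 63.1 CPM with LPS and 46.5 ± 1.08 CPM with vehicle (SD, n = 3 each). The log2 fold change was 2.71 ± 0.15 (SE; edgeR adjusted p = 1.59e-05), the 182nd largest rise among tested genes. Unlike Cxcl2, Cxcl10 was well expressed without LPS: it stood at the 69.8th percentile of tested genes in the Vehicle group and at the 96.7th percentile in the LPS group. The coefficient of variation between libraries was 20.7% with LPS and 2.33% with vehicle. Art3, which overlaps Cxcl10 on the opposite strand, had 34 to 44 counts with LPS and 51 to 62 counts with vehicle, far under the counts of Cxcl10.

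Cxcl9 (ENSMUSG00000029417), known as Mig and classically induced by interferon gamma, had 0, 4 and 18 counts with LPS, against 19, 0 and 0 counts with vehicle. Each group had 1 library above the limit that a count of 0 allows, and with every gene kept in the fit the log2 fold change was 0.26 ± 1.46 (SE; edgeR adjusted p = 0.938). Cxcl11 (ENSMUSG00000060183), the remaining Cxcr3 ligand gene, had 0, 23 and 19 counts with LPS and 4, 8 and 0 counts with vehicle. LPS 2 and LPS 3 were above that limit and no Vehicle library was, and the corresponding log2 fold change was 1.82 ± 1.17 (SE; edgeR adjusted p = 0.393). RefSeq lists Cxcl11 as a transcribed pseudogene in the C57BL/6J reference. The interferon-linked class thus held 1 tested member, called higher, and 2 members too low to test.

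Cxcl14 (ENSMUSG00000021508), which is made by many resting epithelia and attracts monocytes and dendritic cells among others, lies on chromosome 13. Its upstream window is shown because Cxcl14 is the called member that fell, and unlike the windows of the members called higher it holds no kB match (chr13:56296552-56296801, minus strand); capitals mark the response element letters.
Cxcl14: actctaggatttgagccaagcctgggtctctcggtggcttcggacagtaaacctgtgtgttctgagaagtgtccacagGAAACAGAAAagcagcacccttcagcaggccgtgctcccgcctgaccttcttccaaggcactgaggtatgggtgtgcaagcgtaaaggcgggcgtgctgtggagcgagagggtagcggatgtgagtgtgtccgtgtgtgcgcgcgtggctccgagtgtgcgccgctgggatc
The match GAAACAGAAA begins 172 bases upstream of the start, and the window also holds 1 match to the interferon gamma-activated site letters TTCNNNGAA, which occur in 7.02% of windows. The windows of Cxcl9, too low to test, and Cx3cl1, not called, held no kB match either. Cxcl1 held 3 kB matches, counting both strands of an overlapping pair, and was too low to test. A link between kB letters and the direction of change was not tested.

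Cxcl14 had 18.8, 16.1 and 13.0 CPM in LPS libraries 1, 2 and 3, against 32.9, 34.0 and 32.0 CPM with vehicle. The groups did not overlap, and LPS 1 was the highest and LPS 3 the lowest of the LPS libraries. The mean was 15.97 ± 2.90 CPM with LPS and 32.9 ± 0.986 CPM with vehicle (SD, n = 3 each). The log2 fold change was -1.04 ± 0.15 (SE; edgeR adjusted p = 0.00165). Cxcl14 stood at the 48.4th percentile of tested genes with LPS and at the 62.4th percentile with vehicle.

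Cxcl16 (ENSMUSG00000018920), a membrane-bound ligand of Cxcr6 that also acts as a scavenger receptor, lies on chromosome 11 and had 0, 16 and 0 counts with LPS, against 6, 14 and 13 counts with vehicle. It passed the filter but lay near the limit that a count of 0 allows, and the groups overlapped. Its log2 fold change was -0.98 ± 1.26 (SE; edgeR adjusted p = 0.615). The value rests on single libraries: it was -0.43 without LPS 1 and -0.44 without LPS 3, and without LPS 2 both remaining LPS libraries were at 0. Zmynd15, which overlaps Cxcl16 on the opposite strand, was as low, with 0, 8 and 7 counts with LPS and 8, 16 and 14 counts with vehicle.

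Cx3cl1 (ENSMUSG00000031778), fractalkine, is the membrane-bound ligand of Cx3cr1 and in brain is made chiefly by neurons. It had 0.16, 1.08 and 0.739 CPM with LPS, against 0.413, 1.60 and 0.950 CPM with vehicle. Library 1 was the lowest and library 2 the highest in both groups, and the groups overlapped. The log2 fold change was -0.51 ± 0.67 (SE; edgeR adjusted p = 0.629), and without Vehicle 2 it was 0.03 (adjusted p = 0.986). The summed level of 5 neuronal markers was 1.74 to 10.6 CPM with LPS and 4.60 to 9.82 CPM with vehicle, and its part in the Cx3cl1 level was not tested. Only Tubb3 among the 5 was above the limit that a count of 0 allows in every library. The constitutive class thus had all 3 members tested, of which 1 was called lower.

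Over all members of a class, whether tested or not, the median difference in log2 CPM (prior count 2), LPS minus Vehicle, was 3.56 for the neutrophil-attracting, 1.08 for the interferon-linked and -1.06 for the constitutive members, against -0.02 over all tested genes. These medians rest in part on genes at or near 0, and the interferon-linked median was 0.45 without Vehicle 3 and 2.26 without LPS 1. With each group mean raised to at least its floor, the medians of the log2 ratios were 1.90, 0.32 and -0.58. They describe the classes and carry no test.

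The make-up of the chemokine mRNA pool was compared per length, as CPM per kilobase of the longest protein-coding transcript. The summed level of the 10 members was 425, 536 and 382 CPM per kilobase in the LPS libraries, against 52.9, 55.9 and 52.9 CPM per kilobase in the Vehicle libraries. Every LPS library was above every Vehicle library, and the ratio of the group means was 8.31. Of that sum, Cxcl2 made up 47.1 ± 1.33% with LPS and 1.82 ± 0.536% with vehicle, and Cxcl14 made up 1.98 ± 0.401% with LPS and 33.5 ± 0.489% with vehicle (SD, n = 3 each). The share of Cxcl10 was 50.1 ± 1.63% with LPS and 63.8 ± 0.590% with vehicle, lower with LPS although its level was higher. The pool thus held mainly Cxcl2 and Cxcl10 in LPS libraries, and mainly Cxcl10 and Cxcl14 in Vehicle libraries.

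**Figure D2:**
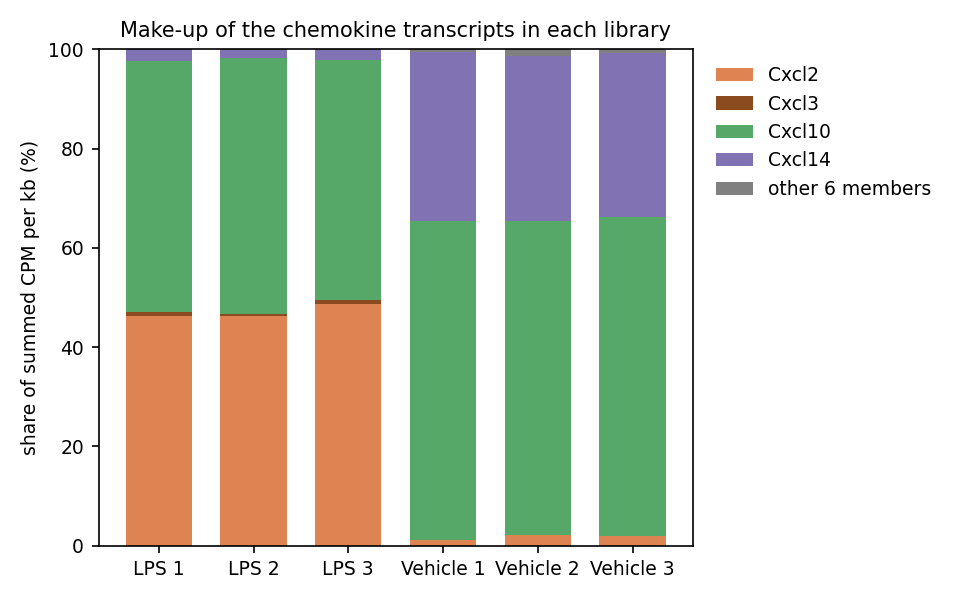
Share of each chemokine gene in the summed level of the 10 members, in percent of CPM per kilobase, as 1 stacked bar per library with LPS libraries left of Vehicle libraries. Cxcl2 makes up 46.3 to 48.6% of the bar in LPS libraries and 1.21 to 2.21% in Vehicle libraries, and the Cxcl14 segment is wide only in Vehicle libraries.

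The order of the members per length differed between the groups. In LPS 1, 2 and 3 Cxcl2 stood at 0.918, 0.897 and 1.005 times the level of Cxcl10, so their order was not the same in every LPS library. Both stood well above Cxcl14. Cxcl10 exceeded Cxcl14 by 20.8, 31.4 and 26.0 times in LPS 1, 2 and 3, against 1.89, 1.90 and 1.94 times in Vehicle 1, 2 and 3. In the Vehicle libraries Cxcl10 came first, Cxcl14 next and Cxcl2 after them, with Cxcl14 at 28.1, 15.03 and 16.2 times the level of Cxcl2 in Vehicle 1, 2 and 3. In LPS libraries the order of Cxcl2 and Cxcl14 was the opposite, with Cxcl2 at 19.1, 28.2 and 26.1 times Cxcl14. These ratios are taken within a library, so library scaling does not enter them, while the transcript length chosen does.

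**Figure D3:**
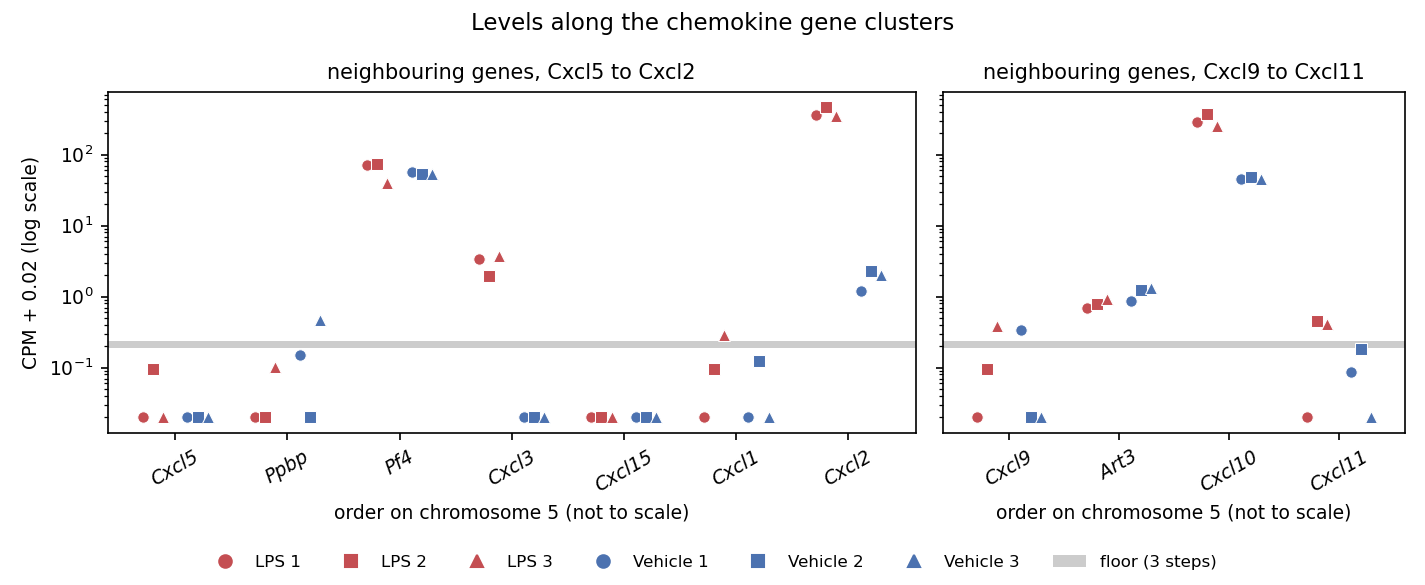
Level of neighbouring genes along the chemokine clusters of chromosome 5, Cxcl5 to Cxcl2 and Cxcl9 to Cxcl11, in CPM on a log axis. Genes are in order and not to scale, with LPS libraries left of Vehicle libraries, and points are libraries. With LPS, Cxcl2 stood at 345 to 461 CPM and Cxcl10 at 250 to 374 CPM. With vehicle, Cxcl2 stood at 1.19 to 2.30 CPM and Cxcl10 at 45.8 to 47.8 CPM.

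Of 11 chemokine receptor genes looked up, 6 were tested, 1 was called higher and 1 lower, against 12.7% higher and 10.9% lower of all tested genes. Cxcr4, the receptor of Cxcl12, fell to 3.23 ± 0.476 CPM with LPS, against 7.74 ± 0.990 CPM with vehicle (SD, n = 3 each), a log2 fold change of -1.25 ± 0.21 (SE; edgeR adjusted p = 0.00358). Gpr35, which has been reported as a receptor for human CXCL17, averaged 24.0 ± 5.94 CPM with LPS and 13.4 ± 1.12 CPM with vehicle (log2 fold change 0.84 ± 0.19, SE; edgeR adjusted p = 0.0145; 0.0656 without Vehicle 2).

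Cxcr2, the receptor of the neutrophil attractants, had 0, 0 and 4 counts with LPS and 38, 8 and 23 counts with vehicle and was not tested. Cxcr3, the receptor of Cxcl9, Cxcl10 and Cxcl11, averaged 4.48 ± 0.505 CPM with LPS and 5.08 ± 0.827 CPM with vehicle and was not called (edgeR adjusted p = 0.569). Cx3cr1, the fractalkine receptor that marks microglia, had 0.721, 0.663 and 1.70 CPM with LPS, against 2.38, 2.51 and 2.11 CPM with vehicle. All 3 LPS libraries of Cx3cr1 were below the Vehicle libraries, but the adjusted p was 0.0567 (edgeR; 0.0116 without LPS 3), so it was not called. Cxcr6, the receptor of Cxcl16, had 8, 19 and 18 counts with LPS and 0, 29 and 0 counts with vehicle (edgeR adjusted p = 0.726). Ackr3, a scavenging receptor, was at 0 in all 6 libraries, and its ligand gene Cxcl12 had 0, 4 and 7 counts with LPS and 34, 4 and 16 counts with vehicle.

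Proteases that shed the membrane-bound members or trim the secreted ones were called in both directions, with 3 of 7 tested genes higher and 3 lower out of 9 looked up, against 12.7% higher and 10.9% lower of all tested genes. Adam10, a sheddase of Cxcl16 and Cx3cl1, fell to 94.6 ± 9.56 CPM with LPS, against 168 ± 15.7 CPM with vehicle (log2 fold change -0.83 ± 0.11, SE). The genes called higher were Mmp9, which cleaves several CXC chemokines (2.39 ± 0.20), Mmp12, the macrophage elastase (2.23 ± 0.17), and Rhbdf2, a partner of the sheddase Adam17 (1.05 ± 0.12), each as a log2 fold change with its SE. Adam17 itself was called lower (-0.40 ± 0.12), as was Ctss (-0.34 ± 0.10), on the same scale. The number of proteases called lower was 1 without LPS 2 or without any single Vehicle library.

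Of 12 tested genes of the NF-kB system, 10 were called higher and none lower, against 12.7% higher and 10.9% lower of all tested genes. Rela (adjusted p = 0.103) and Nfkbie (adjusted p = 0.11) were not called by edgeR. The 12 genes had a median log2 fold change of 1.52, against -0.02 over all tested genes. Nfkbiz, a nuclear inhibitor-like cofactor of NF-kB, averaged 270 ± 18.2 CPM with LPS and 20.3 ± 0.749 CPM with vehicle (SD, n = 3 each), a log2 fold change of 3.73 ± 0.10 (SE). Bcl3, a nuclear cofactor of the same family, changed by 2.38 ± 0.17, Nfkbia, the inhibitor that holds NF-kB in the cytoplasm, by 2.11 ± 0.15, and Nfkb2, which encodes the p100 precursor, by 1.93 ± 0.12 on the log2 scale.

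In the interferon pathway 3 of 13 tested genes were called higher and none lower, against 12.7% higher and 10.9% lower of all tested genes. The share called in either direction was close to the 23.6% of all tested genes. The median of the 13 genes was 0.20 on the log2 scale, against -0.02 over all tested genes. The called genes were Ifngr2, a subunit of the interferon gamma receptor (0.61 ± 0.09), Irf8, a myeloid transcription factor (0.54 ± 0.12; not called without Vehicle 2 or Vehicle 3), and Irf7, a transcription factor induced by type I interferon (0.53 ± 0.10), each as a log2 fold change with its SE. Ifnb1, the interferon beta gene, averaged 0.567 ± 0.265 CPM with LPS and 0.159 ± 0.083 CPM with vehicle (SD, n = 3 each). Its groups did not overlap, but with a log2 fold change of 1.78 ± 0.65 (SE; edgeR adjusted p = 0.0786) it was not called. Among 11 tested regulators of mRNA decay and stability, 4 were called higher and 2 lower, against the same 12.7% and 10.9% of all tested genes. Zc3h12a, the endonuclease Regnase-1 that degrades inflammatory mRNAs, changed by 3.18 ± 0.11, Zfp36, the AU-rich element binder tristetraprolin, by 1.94 ± 0.12, and Traf3ip2, an adaptor of the interleukin-17 receptor that stabilises chemokine mRNAs, by 1.21 ± 0.17, while Zfp36l2, a relative of Zfp36, changed by -1.03 ± 0.11, each as a log2 fold change with its SE.

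**Figure D4:**
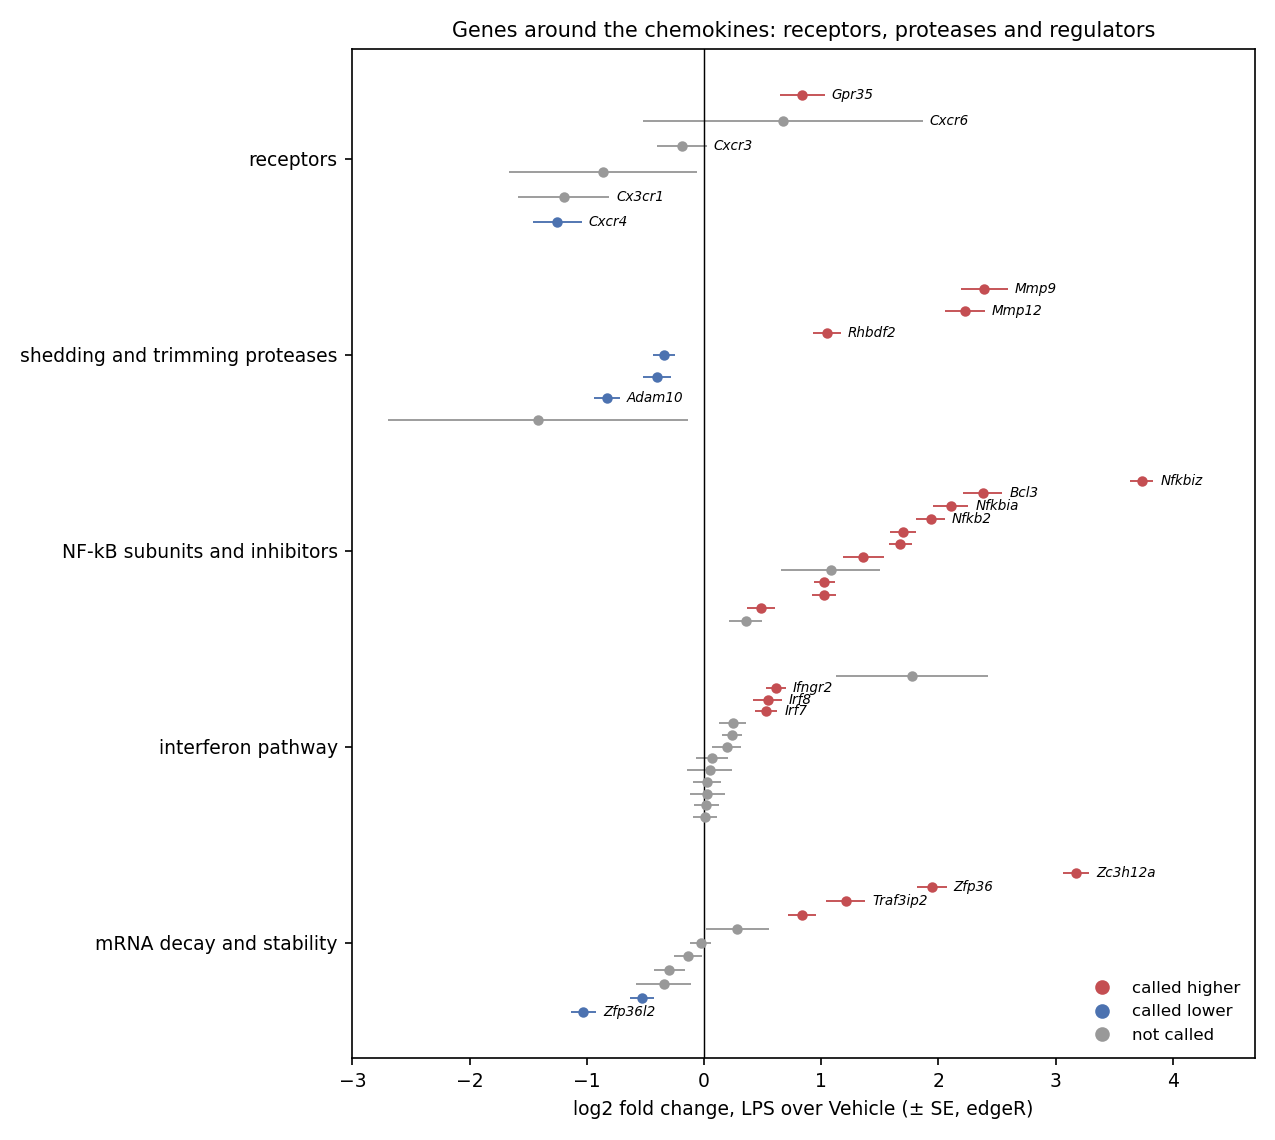
Log2 fold change, LPS over Vehicle, with its SE from edgeR, for the tested receptors, proteases, NF-kB genes, interferon pathway genes and mRNA decay regulators, 1 point per gene. The 12 NF-kB genes lie right of 0 with Nfkbiz at 3.73, while the interferon pathway genes other than Ifnb1, at 1.78, lie at or under 0.61.

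The genes most like the leading member of each class were found by the Euclidean distance between profiles of log2 CPM minus the Vehicle mean over the 6 libraries. Nearest to Cxcl2 were Il1b (distance 0.467), Nos2 (0.746) and Il1a (0.778), whose log2 fold changes were 7.90, 7.67 and 7.35. Genes near Cxcl10 included Sqstm1 (0.219) and Ccl4 (0.293), with log2 fold changes of 2.73 and 2.69. Genes near Cxcl14 included Srsf3 (0.171) and Slc22a18 (0.178), with log2 fold changes of -1.05 and -1.0, of which the value for Slc22a18 was not called. This likeness is a description over 6 libraries that fall into 2 groups.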

How the data were processed

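The authors deposited estimated counts per gene (expected counts) for 6 libraries, all of them whole numbers as deposited, so they were used without further rounding. Bowtie2 2.2.8, HISAT2, StringTie 1.3.1 and DESeq2 are named per the submitters' processing notes, without order or role. The authors' genome build is not given in the sources used here. Neither strand marking nor the treatment of shared reads is stated, so near-identical and overlapping genes are uncertain. The number of sample columns left unmapped was 0.

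Genes were matched to symbols by Ensembl identifier (55141 of 55401). Low genes were removed with filterByExpr at its defaults (10 counts, 15 in total), and the rest were scaled by TMM and compared, LPS over Vehicle, with the two-sided quasi-likelihood F-test of edgeR 4.0.16 in R 4.3.3 on all 6 libraries. P-values were adjusted by Benjamini-Hochberg over all 16371 tested genes and called under 0.05. Standard errors were obtained by dividing the absolute log2 fold change by the root of its F statistic. CPM use TMM-scaled library sizes, and log2 CPM a prior count of 2. Alternatives used DESeq2 1.42.0, limma 3.58.1, other scalings, filters and lengths, a replicate block, values divided by their step, and each library left out. The fit was tested on simulated data.

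The members and lists were chosen with earlier results of these data known. Every member is named. Each related list gives up to 4 called genes with the largest change, at least 1 each way where both occur, plus receptors and ligands paired with members. The remaining proteases called lower, Adam17 and Ctss, are also named. Like patterns are the 3 nearest genes to the member of each class with the highest mean CPM; results for some genes are not reported here. Promoter windows and gene order come from RefSeq on GRCm38.p6; 7 of 10 members matched a window, and Cxcl5, Cxcl11 and Cxcl16 did not. Transcript lengths come from GENCODE, as the longest protein-coding transcript. Windows were aligned with Biopython 1.88, and figures drawn with matplotlib 3.10.9 in Python 3.11.15. Reads carry no molecular identifiers, so floors cover counting error only.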

Additional observations from a re-analysis of the deposited data

How the results depend on the processing

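Cxcl2 and Cxcl10 were called higher and Cxcl14 lower under all 16 alternatives. Cxcl3 was also called higher under all 16, but its Vehicle libraries were all at 0 and it passed the filter through its LPS libraries alone. It may also share reads with Cxcl2, so its repeated call is not a separate case. Without each library in turn, 2344 to 4535 genes were called, against 3864 with all 6 libraries, and the lowest number came without Vehicle 2. The log2 fold change of Cxcl2 then ran from 7.50 to 7.96, that of Cxcl10 from 2.54 to 2.83, that of Cxcl14 from -1.19 to -0.92 and that of Cx3cl1 from -1.09 to 0.027, the last without Vehicle 2. That of Cxcl16 ran from -6.45 without LPS 2, its only LPS library above 0, to -0.43 without LPS 1. That of Cxcr6 ran from -0.021 without Vehicle 1 to 6.96 without Vehicle 2, its only Vehicle library above 0. The cause was not tested. Cxcl16 had no value under the stricter filter or with values divided by their step.

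The adjusted p of Cxcl3 ran from 1.53e-12 to 0.00814 over the alternatives, that of Cxcl2 from 4.22e-250 to 3.59e-05, and that of Cxcl16 from 0.148 to 0.847. Receptors called lower numbered 2 with total counts only or without LPS 3, against 1, as Cx3cr1 was then called. Scaling by total counts only moved the median of all tested genes to -0.10 on the log2 scale, and 42.2% of called genes were then higher, against 53.9%.

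With values divided by their step, the median difference of the neutrophil-attracting members was 2.40 on the log2 scale, against 3.56. Without each library in turn, the class medians ran from 3.41 to 3.89 for the neutrophil-attracting, from 0.45 to 2.26 for the interferon-linked and from -1.20 to -0.93 for the constitutive members. Class medians have no value under alternatives that change only the test, filter or block. Shares of the pool moved with length. Using summed CPM without length, neutrophil-attracting members held 55.2% with LPS, interferon-linked members 42.5% with LPS and 56.5% with vehicle, and constitutive members 41.3% with vehicle. Using the longest transcript of any kind, an alternative chosen after seeing the data, neutrophil-attracting members held 56.7% with LPS, interferon-linked members 40.6% with LPS and 52.0% with vehicle, and constitutive members 2.70% with LPS and 45.8% with vehicle. With the lengths used in the report, these were 47.8% with LPS, 50.2% with LPS and 64.0% with vehicle, and 2.03% with LPS and 34.2% with vehicle. Neutrophil-attracting and interferon-linked shares with LPS thus changed places with length.

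With the replicate number as a block, 3817 genes were called and the calls of the members were as without it. Same-numbered libraries correlated by 0.045 to 0.073 in their deviations from the group means and other pairs by -0.062 to 0.008, so the numbers were not taken as pairs, although every LPS library correlated best with its own number. Members at a few counts are limited by depth: 4 of 10 could not be tested, and 3 were above the limit that a count of 0 allows in all 6 libraries.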
